A study of Mus musculus with 4 samples.

Results

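The Hox genes are the 39 homeobox genes of 4 chromosomal clusters, HoxA to HoxD, and were taken here as every row of the deposited table whose gene name is Hox followed by a, b, c or d and a number. The rule found 39 of 56035 gene rows: 11 of HoxA, 10 of HoxB, 9 of HoxC and 9 of HoxD. All were kept whatever their level. The values come from RNA-seq of the trigeminal ganglion, which holds the sensory neurons and glia of the face, in male C57BL/6 mice of 8 weeks. WT littermates were compared with mice whose genotype label reads TRPV1 K823R transgenic, and which the protocol describes as a knock-in. K823R stands for a lysine of the heat and capsaicin channel TRPV1 replaced by arginine. There were 2 libraries per genotype. The protocol speaks of 2 pairs of ganglia without saying how many animals entered each library, so p-values reflect the spread among these libraries alone, and that spread may be technical. The values are TPM, a transcript abundance unit, which divide reads by gene length and by the library's total. They can therefore be compared between genes, but the read depth behind them is unknown.

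Hox proteins are transcription factors that give cells along the trunk and hindbrain their positional identity. Within a cluster the genes lie in the order in which they are switched on from head to tail, with low paralogue numbers at the anterior end. The trigeminal ganglion forms from cranial neural crest and placode at the front of the hindbrain, at or before the anterior limit of most Hox genes, whereas spinal sensory ganglia carry Hox codes of their level. Hoxd1 is an exception in the mouse, where it is known from nociceptors as a gene that responds to nerve growth factor and takes part in the patterning of their axons.

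Promoter sequence is shown for 4 HoxD genes: Hoxd1, the most abundant member; Hoxd8, the next; and Hoxd9 and Hoxd10, neighbours at which the cluster passes from listed values near 1 TPM to values near 0. Each window holds 250 bases before to 50 bases after the RefSeq gene start, on the plus strand of chromosome 2 in GRCm38.p6. In the Hoxd1 window (chr2:74762730-74763029) the capitals mark the 83 bases between the annotated start of Hoxd1 and that of Haglr, a noncoding RNA read in the other direction.
Hoxd1: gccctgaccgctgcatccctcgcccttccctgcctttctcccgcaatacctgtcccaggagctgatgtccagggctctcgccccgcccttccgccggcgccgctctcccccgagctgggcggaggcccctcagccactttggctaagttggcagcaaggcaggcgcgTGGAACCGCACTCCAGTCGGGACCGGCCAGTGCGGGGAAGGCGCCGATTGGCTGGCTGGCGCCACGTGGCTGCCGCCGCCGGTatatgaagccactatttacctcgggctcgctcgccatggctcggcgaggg
In the windows of Hoxd8 (chr2:74704365-74704664), Hoxd9 (chr2:74697513-74697812) and Hoxd10 (chr2:74691641-74691940) the capitals mark each CG dinucleotide.
Hoxd8: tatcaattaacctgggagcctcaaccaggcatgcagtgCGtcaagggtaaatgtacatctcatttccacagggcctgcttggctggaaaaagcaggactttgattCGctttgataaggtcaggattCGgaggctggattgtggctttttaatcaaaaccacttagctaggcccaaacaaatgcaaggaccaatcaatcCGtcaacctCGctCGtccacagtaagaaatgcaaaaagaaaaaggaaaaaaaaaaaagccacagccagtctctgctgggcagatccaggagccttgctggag
Hoxd9: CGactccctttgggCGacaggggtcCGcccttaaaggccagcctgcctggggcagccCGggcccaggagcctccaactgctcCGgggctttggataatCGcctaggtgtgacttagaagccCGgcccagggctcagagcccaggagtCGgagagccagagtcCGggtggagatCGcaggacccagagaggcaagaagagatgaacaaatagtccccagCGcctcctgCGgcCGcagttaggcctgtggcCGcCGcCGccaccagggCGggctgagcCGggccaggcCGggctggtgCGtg
Hoxd10: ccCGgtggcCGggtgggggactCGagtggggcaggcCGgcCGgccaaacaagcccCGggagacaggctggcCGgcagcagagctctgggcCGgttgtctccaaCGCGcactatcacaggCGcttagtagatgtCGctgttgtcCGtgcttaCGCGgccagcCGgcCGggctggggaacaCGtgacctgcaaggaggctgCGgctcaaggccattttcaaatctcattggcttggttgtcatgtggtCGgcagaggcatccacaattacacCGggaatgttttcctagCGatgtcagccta
The Hoxd1 window holds 29 CG dinucleotides, Hoxd10 22, Hoxd9 20 and Hoxd8 6. Of the 39 members 22 had a window in the RefSeq table. The 24 windows of these 22 genes had a median of 14.5 CG dinucleotides, against 7 over 32851 windows of 27025 genes. The windows of the 5 HoxD genes described below as measurable held 29, 20, 4, 6 and 20 (Hoxd1, Hoxd3, Hoxd4, Hoxd8, Hoxd9), within the range of 4 to 45 of the other Hox windows. The letters TGATNNAT, a site bound by Pbx-Hox pairs, were searched on both strands and found in 0 of those 5 windows, in 4 of 24 Hox windows (16.7%) and in 8.85% of all windows. The Meis letters TGACAG, which differ from the first motif at the fourth letter and so cannot start at the same base, were in 2 of 24 Hox windows (8.33%) and in 19.2% of all windows.

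The tissue label was checked against marker lists. The 8 sensory neuron markers, among them Prph and Avil, summed to 6446 and 5459 TPM in the WT libraries and 6478 and 6099 TPM in the K823R ones. The 11 markers of hindbrain and spinal neurons, whose tissue lies next to the ganglion's central root and expresses Hox genes, summed to 1.22 to 1.6 TPM, and Chat, Mnx1 and Lhx5 were listed at 0 in every library. The 10 oligodendrocyte and astrocyte markers summed to 201 and 409 TPM in the WT libraries and to 467 and 529 TPM in K823R. Most of the WT replicate 1 sum was Aldoc, at 156.15 TPM. All markers but Aldoc were lowest in that library. Mobp was at 2.31 TPM there, against 113.01 TPM in WT replicate 2 and 135.46 and 178.05 TPM in K823R. Gfap was at 3.72 TPM there, against 60.26, 69.32 and 71.14 TPM in the same order. For all 8 markers that were tested the K823R libraries lay above the WT libraries (groups did not overlap for 34.0% of all genes tested). Their median log2 difference was 1.06, or 0.24 without WT replicate 1. The 6 pituitary markers summed to 2.54 and 4.8 TPM in the WT libraries and to 23.8 and 20.1 TPM in the K823R ones. Most of the K823R sums was Gh, at 17.08 and 12.03 TPM against 0.25 and 1.15 TPM in WT. Prl was at 3.05 and 3.56 TPM in K823R against 0 and 0.11 TPM in WT. Pomc, Tshb and Pou1f1 overlapped between the groups, and Cga was at 0.76 and 0.36 TPM in K823R against 0 and 0.33 TPM in WT. The part of these other cells in the Hox values was not tested.

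Hoxd1 held most of the Hox transcripts of the ganglion. It was at 40.28 and 30.29 TPM in the WT libraries and at 35.56 and 35.17 TPM in the K823R ones. Both K823R libraries lay between the WT libraries. Hoxd1 made up 84.4% and 83.7% of the summed Hox TPM in WT and 82.7% and 83.8% in K823R. It ranked 4385 of 15390 genes that averaged 1 TPM or more. Among 265 rows that the deposited annotation assigns a homeobox domain it ranked 16. The library with the lowest Hoxd1, WT replicate 2, also had the lowest sum of sensory neuron markers. Per 1000 TPM of those markers Hoxd1 was at 6.25 and 5.55 TPM in the WT libraries and at 5.49 and 5.77 TPM in the K823R ones. The part of neuron content in the spread was not tested, and in bulk tissue fewer cells of a type and less RNA per cell cannot be told apart. Hoxd1 (ENSMUSG00000042448) lies on chromosome 2 from 74762980 to 74765142. No transcript of another gene matched its transcripts at 95% identity or more over 100 bases or more, and its exons overlap no other annotated gene.

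Hoxd8 and Hoxd9, of paralogue groups 8 and 9, were the other members that averaged 1 TPM or more. Hoxd8 was at 3.67 and 3.57 TPM in the WT libraries and at 3.76 and 5.18 TPM in the K823R ones, with K823R replicate 2 standing above the other 3 libraries. Hoxd9 was at 1.19 and 0.93 TPM in the WT libraries and at 1.99 and 0.84 TPM in the K823R ones, and the K823R libraries enclosed both WT libraries. Hoxd1 exceeded Hoxd8 in TPM by 10.98-fold and 8.48-fold in the WT libraries and by 9.46-fold and 6.79-fold in the K823R libraries. Neither Hoxd8 nor Hoxd9 shares exon bases with another annotated gene, and neither had a near-identical transcript elsewhere by the same search.

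Hoxd3 and Hoxd4, of paralogue groups expressed up to the posterior hindbrain, were just under that level. Hoxd3 was at 1.59 and 0.56 TPM in the WT libraries and at 0.72 and 0.54 TPM in the K823R ones, so that WT replicate 1 stood alone. Hoxd4 was at 0.88 and 0.67 TPM in the WT libraries and at 0.79 and 0.14 TPM in the K823R ones, with K823R replicate 2 the low library. The means next to the level of 1 TPM were 1.24 TPM for Hoxd9 above it and 0.853 TPM for Hoxd3 below it. These values are uncertain, because Hoxd3 and Hoxd4 share 388 exon bases with each other and 2225 and 1154 with Gm28230, a joint gene model over both. They also share 347 bases with the opposite strand of Hoxd3os1, and the counting's strand setting is not given in the labels used. The order of the 5 HoxD genes by mean was Hoxd1, Hoxd8, Hoxd9, Hoxd3 and Hoxd4. The libraries of Hoxd1 overlapped those of no other member, and those of Hoxd8 lay above all of Hoxd9. The libraries of Hoxd9, Hoxd3 and Hoxd4 overlapped, so their order is not separated by the spread.

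The other 34 members were at or near 0. Of these, 26 were listed at 0 in every library: 8 of HoxA, 7 of HoxB, 8 of HoxC and 3 of HoxD. The remaining 8, among them Hoxa2, Hoxa5, Hoxb3, Hoxb6, Hoxb7, Hoxc6 and Hoxd10, had means under 0.1 TPM, and their highest value in any library was 0.14 TPM, for Hoxd10 in WT replicate 1. Each of these 7 named genes was above 0 in 1 library. Hoxa2, whose domain reaches farthest forward in the hindbrain, was at 0.05 TPM in K823R replicate 2 and at 0 elsewhere. The HoxA, HoxB and HoxC clusters together summed to 0 and 0.19 TPM in the WT libraries and to 0.19 and 0.09 TPM in the K823R ones, while HoxD summed to 47.8, 36.02, 42.8 and 41.9 TPM in the same order. HoxD thus held 99.5% to 100% of the Hox TPM in each library. A value of 0 in such a table can be a failed estimate, and without read depth no upper limit can be given.

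**Figure D1:**
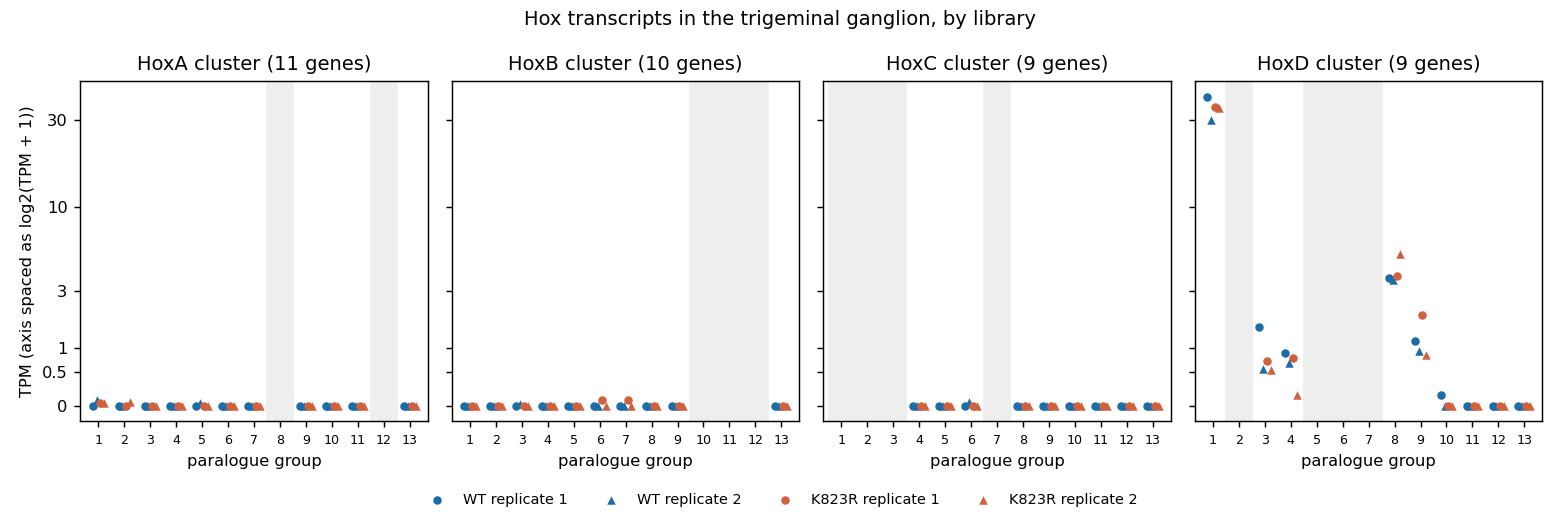
TPM of the 39 Hox genes by paralogue group (horizontal axis) in each cluster, with 1 point per library; the vertical axis is spaced as log2(TPM + 1), and grey bands mark groups with no gene in that cluster. Outside HoxD no point exceeds 0.08 TPM, and the HoxD points above 0 are at groups 1, 3, 4, 8 and 9 and, for 1 library at 0.14 TPM, 10, with Hoxd1 between 30.29 and 40.28 TPM.

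Along the HoxD cluster, the listed means did not fall evenly from the anterior to the posterior end. This rests on Hoxd3 and Hoxd4, whose values are uncertain as given above and whose means lay below those of Hoxd8 and Hoxd9. Without that pair, the means fell in order from Hoxd1 to Hoxd8, Hoxd9 and Hoxd10. The cluster spans 96.8 kb of chromosome 2, from Hoxd13 at 74668310 to the end of Hoxd1 at 74765142. From the Hoxd1 start in GENCODE, the starts of Hoxd3 and Hoxd4 lie 51.1 kb away, Hoxd8 58.4 kb and Hoxd9 65.3 kb. The mean levels of these genes were 0.853, 0.62, 4.05 and 1.24 TPM. The RefSeq promoter window of Hoxd4 lies elsewhere than its GENCODE start, at chr2:74721728-74722027. Hoxd10 starts 71.1 kb away, with a mean of 0.035 TPM, and Hoxd11, Hoxd12 and Hoxd13, known for the limbs and the tail end of the body, were listed at 0. The limb- and spinal cord-related homeobox gene Evx2, beyond Hoxd13, had a mean of 0.0075 TPM.

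The only other rows within the 4 clusters with a mean of at least 1 TPM were noncoding RNAs of HoxD. Haglr, a long noncoding RNA that starts 84 bases from Hoxd1 on the opposite strand, was at 16.79 and 11.36 TPM in the WT libraries and at 11.49 and 9.89 TPM in the K823R ones. WT replicate 1 had the highest Haglr and also the highest Hoxd1, but the lowest library was K823R replicate 2 for Haglr and WT replicate 2 for Hoxd1. Hoxd3os1, an antisense RNA that shares exon bases with Hoxd3 and Hoxd4, was at 2.38 and 2.51 TPM in the WT libraries and at 1.5 and 3.8 TPM in the K823R ones. Its exons do not overlap those of Hoxd8, which lies within its span. The sequences of the Hoxd1 window above show how close the starts of Hoxd1 and Haglr are. With Haglr and Hoxd3os1 included, HoxD held 10 rows other than Hox genes, of which 6 were listed at 0. The lincRNA Gm14424 had a mean of 0.118 TPM. In HoxA 17 of 20 other rows were listed at 0, and all 9 of HoxB and all 7 of HoxC. The 3 above 0 in HoxA were Hotairm1, Hoxaas2 and Hoxa11os, the highest value being 0.18 TPM.

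**Figure D2:**
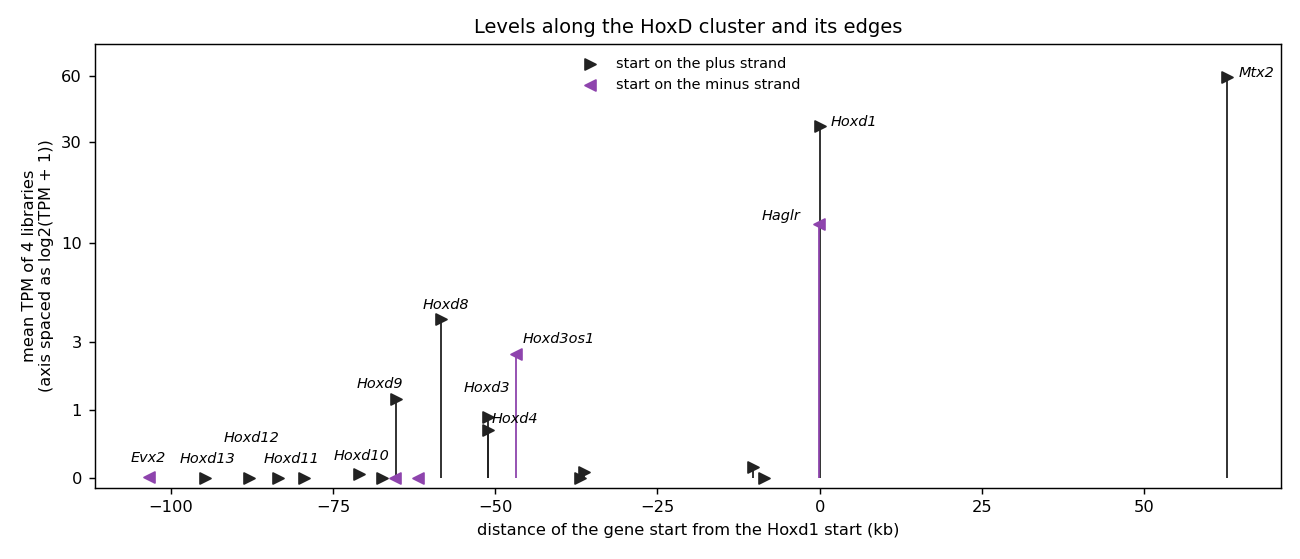
Mean TPM of the 4 libraries (axis spaced as log2(TPM + 1)) against the distance of each gene's start from the Hoxd1 start in kb; black triangles point right for the plus strand and purple ones left for the minus strand. The start of Haglr falls at that of Hoxd1, levels near 0 lie beyond Hoxd9 on the left, and Mtx2 stands at 59.0 TPM on the right.

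Genes at the edges of the clusters were present beside the Hox rows listed at 0. Of the 3 nearest protein-coding genes on each side of each cluster, 24 in all, 20 had a mean of at least 1 TPM, from 1.53 TPM for Ttll6 to 868 TPM for Atp5g3. Mtx2, a mitochondrial outer membrane import gene 62.8 kb beyond the Hoxd1 start, was at 59.0 TPM on average, and Lnpk, an endoplasmic reticulum shaping gene on the far side, at 30.2 TPM. Next to HoxA, the adaptor gene Skap2 had a mean of 18.4 TPM and the valine-degrading enzyme gene Hibadh 74.1 TPM, and beside HoxB the sorting nexin gene Snx11 47.3 TPM. Beside HoxC, Calcoco1 had a mean of 36.1 TPM and the base excision repair gene Smug1 16.0 TPM. The 4 under 1 TPM were Evx1, listed at 0, Evx2, Calcoco2 and Skap1.

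The K823R libraries were compared with WT by limma on log2(TPM + 1) over all 15390 genes that averaged 1 TPM or more, with Benjamini-Hochberg adjusted p over all of them. This pseudocount understates differences of low genes. Of the 3 Hox members tested, 0 passed an adjusted p of 0.05, against 0.00650% of all genes tested, and 0 had an unadjusted p under 0.05, against 4.76%. With 3 members a share cannot be set against these percentages closely. All 3 had a log2 difference above 0, as had 57.4% of all genes tested. WT and K823R values were free of overlap for 1 of the 3, Hoxd8, against 34.0% of all genes tested. Hoxd1 was at 35.3 ± 7.06 TPM for WT and 35.4 ± 0.276 TPM for K823R (SD, n = 2 each), a log2 difference of 0.017 whose standard error (SE) was 0.15 and whose 95% confidence interval ran from -0.38 to 0.41 (limma, adjusted p = 0.993). The difference was -0.18 without WT replicate 2 and -0.012 after quantile normalization.

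Hoxd8 was at 3.62 ± 0.0707 TPM for WT and 4.47 ± 1.004 TPM for K823R (SD, n = 2 each), with a log2 difference of 0.23, SE 0.19 and an interval of -0.26 to 0.73 (limma, adjusted p = 0.918). The Hoxd8 difference was 0.043 without K823R replicate 2 and 0.42 without K823R replicate 1. Hoxd9 was at 1.06 ± 0.184 TPM and 1.42 ± 0.813 TPM (SD, n = 2 each), with a log2 difference of 0.19, SE 0.34 and an interval of -0.69 to 1.07 (limma, adjusted p = 0.958). The Hoxd9 difference rested on K823R replicate 1, the only library above 1.19 TPM. It came to 0.54 when K823R replicate 2 was left out and to 0.10 when WT replicate 2 was. Without K823R replicate 1, Hoxd9 fell under the filter of 1 TPM and was not tested. K823R replicate 2 alone, at 0.84 TPM, lay below both WT libraries. For Hoxd3 and Hoxd4, below the filter, the log2 differences were -0.30 and -0.31, and neither passed when the filter was lowered to 0.1 TPM (limma, adjusted p = 0.904 and 0.889). The interval of Hoxd1 was the narrowest of the 3 and that of Hoxd9 the widest.

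Haglr and Hoxd3os1 were in the same fit. Haglr averaged 14.1 ± 3.84 TPM in the WT group and 10.7 ± 1.13 TPM in the K823R group (SD, n = 2 each), a log2 difference of -0.35 with SE 0.21 (limma, adjusted p = 0.918), and its groups overlapped. It was -0.084 without WT replicate 1 and -0.61 without WT replicate 2. Hoxd3os1 had a log2 difference of 0.0082 with SE 0.36 (limma, adjusted p = 0.997), which turned to -0.044 after quantile normalization and -0.026 with a pseudocount of 0.1 TPM. Leaving out K823R replicate 2 gave -0.46, and leaving out WT replicate 1 gave -0.019. Among the 20 flanking genes tested, 11 were higher and 9 lower in K823R, against 57.4% higher among all genes tested. Of the 20, 0 passed and 5 had groups that did not overlap (34.0% of all genes tested did not). Their median log2 difference was 0.0037, against 0.026 over all genes tested.

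**Figure D3:**
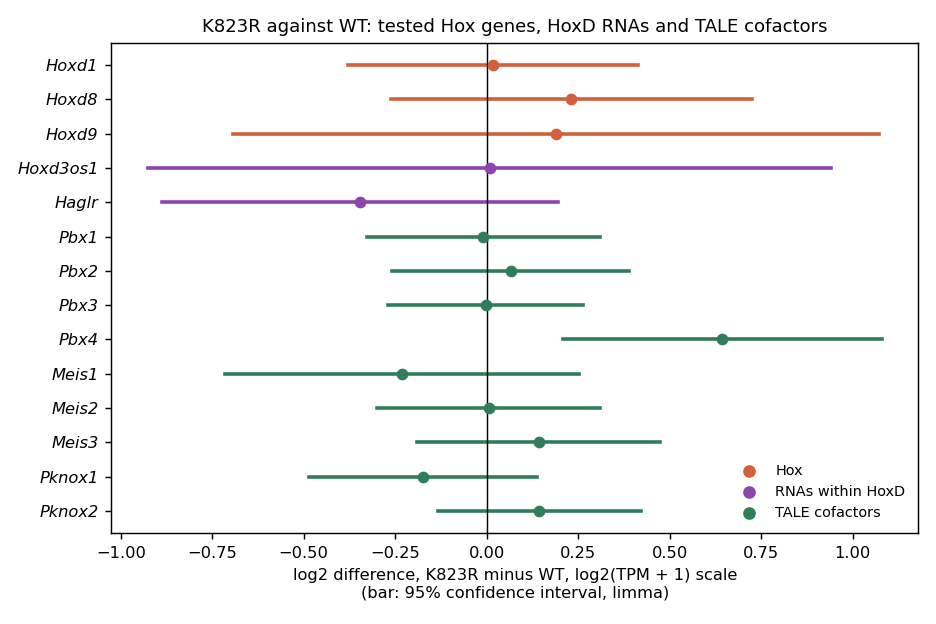
Log2 difference, K823R minus WT, of log2(TPM + 1) (point) with its 95% confidence interval from limma (bar) for the 3 tested Hox genes, the 2 tested RNAs within HoxD and the 9 TALE cofactors. All intervals include 0 except that of Pbx4, whose adjusted p was 0.918.

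The TALE proteins (Pbx, Meis and Pknox), with which Hox proteins bind DNA and which also act without them, were all present. All 9 genes of the list had a mean of at least 1 TPM, the highest being Pbx2 at 61.5, Meis2 at 47.0 and Meis3 at 38.9 TPM. Of the 9, 5 were higher and 4 lower in K823R, against 57.4% higher among all genes tested. By limma 0 of the 9 passed and 1, Pbx4, had an unadjusted p under 0.05, against 4.76% of all genes tested. Groups did not overlap for 3 of 9 (33.3%), near the 34.0% of all genes tested. Their median log2 difference was 0.0053, which turned to -0.014 after quantile normalization, -0.025 without K823R replicate 1 and -0.049 without WT replicate 2. Pbx4, one of the Pbx partners, was at 11.23 and 10.08 TPM in the WT libraries and at 14.85 and 19.89 TPM in the K823R ones. The K823R values were the upper 2 of the 4, with a log2 difference of 0.64 and SE 0.17 (limma, adjusted p = 0.918). Pknox1 was at 6.48 and 6.56 TPM in the WT libraries and at 5.65 and 5.67 TPM in the K823R ones, a log2 difference of -0.18 (limma, adjusted p = 0.918). Pknox2 had a log2 difference of 0.14 with overlapping groups (limma, adjusted p = 0.918), and 0.061 without K823R replicate 1.

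Polycomb proteins keep Hox clusters silent where they are not used, and trithorax proteins keep them active. Of 31 Polycomb genes 30 were tested, with 16 higher and 14 lower in K823R, against 57.4% higher among all genes tested. By limma 0 of the 30 passed and 0 had an unadjusted p under 0.05, against 0.00650% and 4.76% of all genes tested. Groups did not overlap for 7 of 30 (23.3%), against 34.0% of all genes tested, and the median log2 difference was 0.0056, which turned to -0.024 after quantile normalization, -0.043 without K823R replicate 1 and -0.010 without WT replicate 2. The most abundant were Rbbp7 at 110 TPM, Cbx6 at 82.8 TPM and Phc2 at 71.7 TPM. The methyltransferase Ezh1, typical of cells that no longer divide, had a mean of 34.8 TPM, and its relative Ezh2 had 2.71 TPM. The ligase Ring1 was at 21.74 and 23.25 TPM in the WT libraries and at 31.73 and 25.78 TPM in the K823R ones, and Yaf2 had means of 59.9 and 52.5 TPM (limma, adjusted p = 0.918 for each).

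Of 13 trithorax and related genes, 10 were higher and 3 lower, against 57.4% higher among all genes tested. By limma 0 of the 13 passed and 0 had an unadjusted p under 0.05, against 0.00650% and 4.76% of all genes tested. Their median log2 difference was 0.074. The median was 0.031 without WT replicate 2 and 0.032 without K823R replicate 1. Groups did not overlap for 3 of 13 (23.1%), against 34.0% of all genes tested. Dpy30 (115 TPM), Psip1 (99.5 TPM) and Smarca4 (38.6 TPM) were the most abundant, and Kmt2a, which maintains Hox expression, had a mean of 5.94 TPM. Smarca4, Wdr5 and Rbbp5 had the smallest p of the list, with log2 differences of 0.15, 0.13 and 0.12 (limma, adjusted p = 0.918 for each). Without WT replicate 2 those of Smarca4 and Rbbp5 were 0.034 and 0.033, and without K823R replicate 1 that of Wdr5 was 0.053.

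Retinoic acid switches on anterior Hox genes in the embryo, and the list of its synthesis, breakdown and receptor genes had 16 of 18 members tested. Of these 14 were higher and 2 lower in K823R, against 57.4% higher among all genes tested, and 0 passed limma. Dhrs3 and Cyp26b1, 2 of the 16, had an unadjusted p under 0.05, against 4.76% of all genes tested. Groups did not overlap for 8 of the 16 (50%), against 34.0% of all genes tested. The median log2 difference was 0.19, against 0.026 over all genes tested. Dhrs3, which returns retinaldehyde to retinol, was at 7.93 and 10.24 TPM in the WT libraries and at 13.06 and 11.87 TPM in the K823R ones. Cyp26b1, which degrades retinoic acid, was at 0.48 and 1.02 TPM in the WT libraries and at 2.42 and 1.66 TPM in the K823R ones. The synthesis enzyme Aldh1a2 was at 1.51 and 2.04 TPM in the WT libraries and at 8.14 and 2.94 TPM in the K823R ones, with K823R replicate 1 above the others and a log2 difference of 1.12, or 0.51 without it (limma, adjusted p = 0.918 for these 3 genes).

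Markers of connective tissue are set beside this list. Meningeal fibroblasts express Aldh1a2. Of the 8 fibroblast and meningeal markers, 4 were highest in K823R replicate 1, the library with the highest Aldh1a2 (Slc22a6, Mgp, Foxc1 and Pdgfra). Dcn and Lum were highest in WT replicate 2, and Col1a1 and Col1a2 in K823R replicate 2. The 8 markers summed to 234 and 491 TPM in the WT libraries and to 461 and 427 TPM in the K823R ones, and none was listed at 0. All 7 tested, Dcn and Lum among them, had a log2 difference above 0, as had 57.4% of all genes tested. The median was 0.41, or 0.13 without WT replicate 1. Their part in the retinoic acid values was not tested. The receptors Rxrb (40.1 TPM) and Rarg (27.0 TPM) and the synthesis enzyme Aldh1a1 (23.3 TPM) were the most abundant of the list, and Aldh1a1 was lowest in WT replicate 1, at 14.95 TPM against 24.01, 29.43 and 24.96 TPM.

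The genes that set up hindbrain segments ahead of the Hox genes were mostly low. Of 9 listed, 3 were tested, among them Egr2 and Epha4, with 1 higher, 2 lower and 0 passing (57.4% of all genes tested were higher). Egr2, which also drives Schwann cell myelination, was at 18.59 and 15.59 TPM in the WT libraries and at 23.15 and 20.39 TPM in the K823R ones, a log2 difference of 0.33 (limma, adjusted p = 0.918). Epha4, an ephrin receptor, had a mean of 2.83 TPM and a log2 difference of -0.15 (limma, adjusted p = 0.941), which turned to 0.0038 without WT replicate 1. Fgf8 was listed at 0.

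Other homeobox families of the head were set beside the Hox genes to describe the ganglion's positional code. The sensory ganglion homeobox genes had a median level of 6.20 TPM over 17 genes, led by Pou4f1 at 135 TPM, Drgx (listed as Prrxl1) at 85.9 TPM and Isl1 at 85.6 TPM, all regulators of sensory neuron identity. Of 12 tested 9 were higher and 3 lower in K823R, against 57.4% higher among all genes tested, and 0 passed. Groups did not overlap for 4 (33.3%), near the 34.0% of all genes tested, and the median log2 difference was 0.031, which turned to -0.035 without K823R replicate 1 and -0.015 without WT replicate 2. Pou4f1, Onecut3 and Hmx1 had the smallest p, with log2 differences of 0.14, 0.25 and 0.46 (limma, adjusted p = 0.918, 0.935 and 0.935), and Hmx1 was carried by 7.13 TPM in K823R replicate 1, with -0.18 without it. Forebrain and midbrain homeobox genes all had means under 1 TPM: 5 of 13, among them Otx1 and Otx2, which mark the brain ahead of the hindbrain, were listed at 0, and the highest, Lmx1b, had a mean of 0.87 TPM. The 6 Iroquois genes had a highest mean of 0.438 TPM, for Irx3.

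Of the 13 Hox relatives and ParaHox genes 8 were listed at 0, and Gbx1 was the only one with a mean of at least 1 TPM, at 1.48 and 1.81 TPM in the WT libraries and 2.72 and 2.15 TPM in the K823R ones (limma, adjusted p = 0.918). Of the 17 craniofacial homeobox genes, active in facial mesenchyme and its derivatives, 2 were tested, Dlx3 and Prrx2, with means of 2.30 and 1.98 TPM. Their K823R libraries lay above WT (groups did not overlap for 34.0% of all genes tested). The log2 differences were 0.20 and 0.37 (limma, adjusted p = 0.935 and 0.918), or 0.037 and 0.16 without K823R replicate 1. Over all 265 homeobox rows, 65 of 226 that are not Hox genes (28.8%) had a mean of at least 1 TPM, against 3 of 39 Hox genes (7.69%). Rows listed at 0 in every library were 82 of 226 (36.3%) and 26 of 39 (66.7%). These shares describe the tissue and were not tested.

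**Figure D4:**
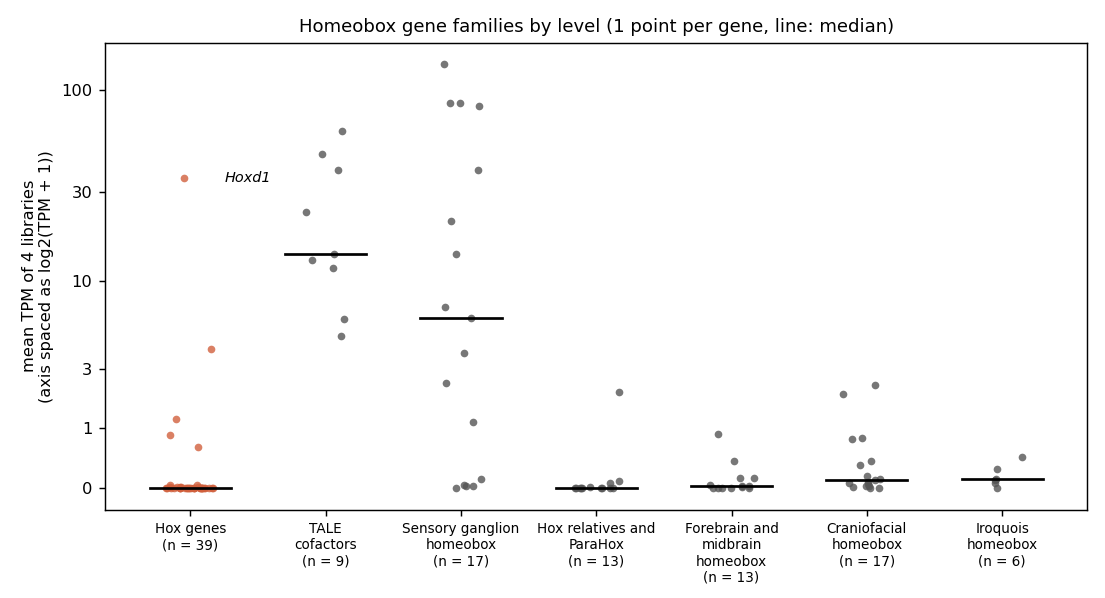
Mean TPM of 4 libraries (axis spaced as log2(TPM + 1)) for each gene of 7 homeobox families, with a line at the median of each. Hoxd1, at 35.3 TPM, lies in the range of the TALE and sensory ganglion genes, while 26 of the 39 Hox genes lie at 0 and the forebrain, Iroquois and craniofacial genes reach at most 0.87, 0.438 and 2.30 TPM.

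Nociceptor genes were described as the setting of Hoxd1. Of 9, 8 were higher and 1 lower in K823R, against 57.4% higher among all genes tested, and 0 passed limma. An unadjusted p under 0.05 was found for 1 and groups did not overlap for 1 (11.1%), against 4.76% and 34.0% of all genes tested. The median log2 difference was 0.059 and turned to -0.054 without WT replicate 2. P2rx3, an ATP-gated channel, and Trpv1 itself had log2 differences of 0.15 and 0.12 (limma, adjusted p = 0.918 and 0.938). Prph and Ret, at 1844 and 261 TPM, were the most abundant beside P2rx3 (172 TPM). Like Hoxd1, all of P2rx3, Trpv1, Prph and Ret were lowest in WT replicate 2. Mrgprd, of the same list, was instead lowest in K823R replicate 2, at 47.59 TPM against 48.62 TPM in WT replicate 2.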

How the data were processed

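RNA-seq of the trigeminal ganglion gave 2 libraries per genotype, WT and K823R, whose titles set the groups. Per the labels' protocols, mRNA was isolated, fragmented and copied with random hexamers. Tools listed in the submitters' processing notes are edgeR, RSEM, HISAT2 and fastp 0.19.5, on build GRCm38.p6, without role or order. Not given in the sources used here: strand setting and annotation release. The authors deposited TPM for 56035 gene rows, rounded to 2 decimals, and each library has nearly the same sum. The deposited gene length was not used in a test. Depth is unknown.

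Genes averaging 1 TPM or more were tested with limma 3.58.1 (R 4.3.3) on log2(TPM + 1), with a variance trend, two-sided, Benjamini-Hochberg adjusted over all 15390 genes, threshold 0.05. Tables and plots used Python 3.11.15, pandas 2.3.3 and matplotlib 3.10.9, and near-identical transcripts were searched with BLAST 2.17.0. Coordinates are from GENCODE M21 (GRCm38) and promoters from RefSeq (GRCm38.p6). The fit was tested on simulated data. Members with a mean of at least 0.1 TPM are given in every library, and from each list the 3 smallest p and 3 highest means are named, except for some items that are not reported here. The Hox members and lists were chosen with earlier results of these data known. The alternatives were a pseudocount of 0.1 TPM, filters of 0.1 TPM and none, quantile normalization, TPM without mitochondrial genes, a replicate block, a threshold of 0.10 and leaving out each library.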

Additional observations from a re-analysis of the deposited data

How the results depend on the processing

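In limma, 0 Hox members passed under every alternative run, and the smallest adjusted p of any of the 5 HoxD genes over them was 0.656. Over all genes, 1 passed as reported (the processed pseudogene Gm43110, no Hox gene and singled out after its values were seen), 4 at an adjusted p below 0.10, and 0 with no filter, with a replicate block or without any one of the libraries (0 in each). Same-numbered libraries deviated together with a correlation of 0.050 across genes, so the numbers give no sign of pairing. The median log2 difference of the tested Hox members was 0.19, 0.0011 with no filter and 0.017 at 0.1 TPM, because more low members enter. It ran from 0.043 to 0.247 without single libraries. Without K823R replicate 1 only 2 members entered that median, because Hoxd9 fell under the filter. Hoxd9 therefore has no value for that setting in the count of sign changes below. Hox members with a mean of at least 1 TPM numbered 3, but 5 at 0.5 TPM or at 0.1 TPM, and 2 without K823R replicate 1, which takes Hoxd9 below 1 TPM. Of 31 genes named with a difference, 5 changed sign in 9 of 293 alternatives and 0 passed. Hoxd1 gave -0.012 by quantile normalization and -0.183 (without WT replicate 2) to 0.217 over leave-one-out. Hoxd3os1 gave -0.026 with a pseudocount of 0.1 TPM, -0.044 by quantile normalization, -0.019 without WT replicate 1 and -0.462 (without K823R replicate 2) to 0.479 over leave-one-out. Leave-one-out ran from -0.294 to 0.0038 (without WT replicate 1) for Epha4, from -0.183 (without K823R replicate 1) to 1.096 for Hmx1 and from -0.048 (without WT replicate 2) to 0.297 for Trpv1. Where a lone library stood for a genotype it was assumed to vary like the others, and the causes were not tested.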

Other observations

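Among the 265 rows with a homeobox domain in the deposited annotation, 29 had a mean of at least 10 TPM and 108 were listed at 0 in every library. The most abundant was Hopx, a small protein with a homeodomain that does not bind DNA, at 349 and 399 TPM in the WT libraries and 354 and 361 TPM in the K823R ones. Isl2 (182 TPM on average), a neuronal homeobox gene, ranked 2, and Tlx2 (109 TPM), another, ranked 5, after Pou4f1 (135 TPM) and Cers2. The ceramide synthase genes Cers2, Cers5 and Cers4 carry a homeobox-like domain and stood at 117, 43.4 and 28.5 TPM, so rank in this list is not rank among regulators of transcription. Cux1 (37.2 TPM) stood just above Hoxd1 and Cers4 just below it.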
